A study of Mus musculus with 8 samples.

Results

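The core pluripotency transcription factors are the DNA-binding proteins and cofactors that hold early embryonic cells in a state from which every cell type of the body can form. Here 10 of their genes (Pou5f1, Nanog, Sox2, Esrrb, Tfcp2l1, Tbx3, Zfp42, Utf1, Nr5a2 and Sall4) were followed in mouse morulae depleted of P150. Every array probe whose RefSeq name led to one of these symbols was taken, which gave 14 probes, 1 for each of 7 genes and several for Tfcp2l1, Nr5a2 and Sall4, out of 55681 probes on the array and 20660 genes named on it. P150 is the big subunit of chromatin assembly factor 1 (CAF-1), which hands new histones to replicating DNA, and its gene is Chaf1a.

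All embryos came from in vitro fertilisation and were collected as morulae at embryonic day 3.0 after culture. The labels give no strain. The siControl group (3 arrays) had received control siRNA and the P150KD group (5 arrays) siRNA to P150, both injected into 1-cell embryos, so both groups carry the injection. Each array held amplified RNA of 10 pooled embryos on one colour of dye, so a value is an average over inner and outer cells, and fewer cells of a type cannot be told apart from less RNA per cell. The labels do not say whether replicates were separate collections, and p-values therefore measure only the spread between these samples, which may be technical.

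In the preimplantation embryo OCT4 (from Pou5f1) and SOX2 bind DNA side by side, often at a paired octamer and SOX motif, and together with NANOG switch on one another and a wider set of genes. ESRRB, TFCP2L1, TBX3 and NR5A2 are helpers of this circuit that sustain it in embryonic stem cells, SALL4 is a zinc finger partner of OCT4 and NANOG, and UTF1 and ZFP42 (also called REX1) are classic markers of the pluripotent state. At the morula stage most of these genes are already on in many cells, whereas Sox2 begins to mark the inner cells from which the embryo proper arises.

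A value below is the log2 of the processed spot signal relative to the 75th percentile of its array, so it compares a probe between arrays and not one gene with another. Between 50.1% and 55.9% of spots on an array were well above background, 0 spots were saturated, and the number of arrays limits the precision. The siRNA target came first: Chaf1a stood at 2.40, 2.09 and 2.27 on the siControl arrays and at -1.47, 0.52, -0.48, -1.45 and -0.23 on P150KD replicates 1 to 5, every knockdown array below every control (a log2 difference of -2.88, SE 0.48, limma adjusted p = 0.0107; with the slide column described next as a block, adjusted p = 0.0509). The middle CAF-1 subunit gene Chaf1b had a change of -0.90 (SE 0.18, limma adjusted p = 0.0188), which did not pass with that block (adjusted p = 0.0919), with quantile normalization (-0.65, adjusted p = 0.0655), with housekeeping scaling (-0.36) or without any 1 of the controls (adjusted p 0.0557 to 0.0709). The arrays lie on 1 slide in 2 columns. One column holds the 3 controls with P150KD replicate 1 and the other holds P150KD replicates 2 to 5, so for the factors that fell, and for Tbx3, the difference within the shared column is given as well, which rests on 1 knockdown array.

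Of the 10 factor genes 3 fell in P150KD, namely Sox2, Utf1 and Zfp42, and 0 rose. The other 7 did not pass. Counted by probe, 3 of 14 fell at a limma adjusted p under 0.05, beside 7.66% of all 30348 tested probes, and 0 of 14 rose, beside 6.28%. Without adjustment 4 of 14 had a limma p under 0.05, beside 9236 of all 30348 tested probes. On 4 of the 14 probes all P150KD arrays lay below all siControl arrays, beside 17.7% of all tested probes, and on 0 probes all lay above, beside 9.36%. The median change of the 14 probes was -0.42, against -0.20 over all tested probes, so the array as a whole leaned the same way. By the brightest probe of each gene 8 of the 10 were lower with a median of -0.54, against -0.24 for all genes. The share of all genes that were lower was not counted. When scaled to housekeeping genes 5 of the 10 were lower and 5 higher. Their median was then -0.01, against 0.33 over all tested probes. All 14 probes passed the filter on dim signals, 13 of them being well above background on all 8 arrays. With the slide column as a block 0 of the 14 passed, beside 2.35% of all tested probes.

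**Figure D1:**
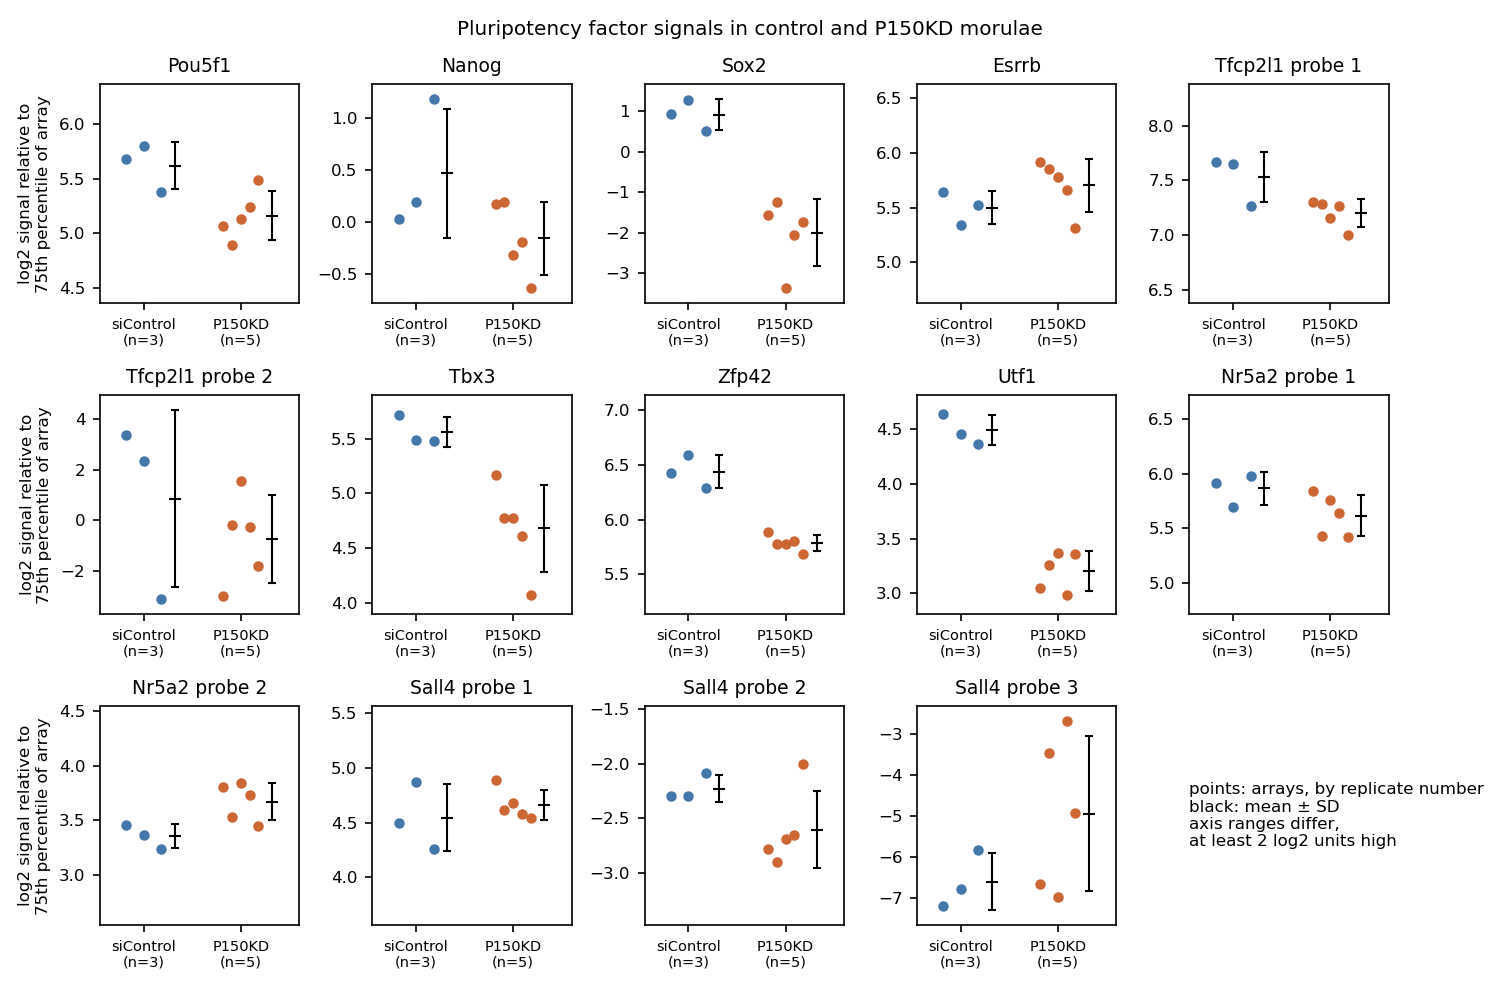
Log2 signal over each array's 75th percentile for the 14 probes, by group, with each point an array and the black bar the mean ± SD (n = 3 siControl, n = 5 P150KD). Numbered probes run from the brightest to the dimmest of a gene. The Sox2, Utf1, Zfp42 and Tbx3 groups do not overlap, and the second Tfcp2l1 probe scatters from -3.13 to 3.39 among the controls.

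The stretches around the transcription start of the 3 genes that fell, and of Nanog, are printed here because short motifs of these same factors can be read in them. They are RefSeq promoter windows on build GRCm38.p6, from 250 bases before the first transcribed base to 50 bases from it, written 5′ to 3′ on the strand of the gene. Of the 10 genes 8 had a window, 12 windows in all. Capitals mark the octamer core ATGCAAA, the SOX core CATTGT and the GC box GGGCGG on either strand.
Sox2: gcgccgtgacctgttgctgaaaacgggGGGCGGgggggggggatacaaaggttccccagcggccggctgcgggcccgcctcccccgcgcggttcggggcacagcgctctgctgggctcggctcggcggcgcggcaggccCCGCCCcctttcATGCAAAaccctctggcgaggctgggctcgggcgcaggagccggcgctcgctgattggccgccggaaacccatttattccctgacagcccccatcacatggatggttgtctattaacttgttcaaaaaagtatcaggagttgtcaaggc
Utf1: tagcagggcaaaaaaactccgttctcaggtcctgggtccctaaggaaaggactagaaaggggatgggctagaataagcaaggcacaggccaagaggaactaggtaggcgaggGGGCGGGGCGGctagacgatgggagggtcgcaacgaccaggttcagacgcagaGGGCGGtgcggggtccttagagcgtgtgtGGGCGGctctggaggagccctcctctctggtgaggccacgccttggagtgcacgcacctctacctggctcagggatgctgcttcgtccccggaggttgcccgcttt
Zfp42: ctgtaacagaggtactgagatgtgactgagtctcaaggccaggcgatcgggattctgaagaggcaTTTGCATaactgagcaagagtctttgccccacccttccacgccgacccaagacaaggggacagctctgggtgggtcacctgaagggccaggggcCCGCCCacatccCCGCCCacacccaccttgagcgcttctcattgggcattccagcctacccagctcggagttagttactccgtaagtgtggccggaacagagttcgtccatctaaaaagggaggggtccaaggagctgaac
Nanog: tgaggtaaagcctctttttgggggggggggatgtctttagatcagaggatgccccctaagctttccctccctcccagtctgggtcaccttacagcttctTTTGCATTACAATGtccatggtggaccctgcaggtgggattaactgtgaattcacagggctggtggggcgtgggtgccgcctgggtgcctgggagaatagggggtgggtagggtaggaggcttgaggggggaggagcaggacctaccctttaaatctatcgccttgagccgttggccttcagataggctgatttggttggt

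The Sox2 window (chr3:34649745-34650044, plus strand) holds the octamer core at positions -99 to -93, counted from 0 at the first transcribed base, and the Zfp42 window (chr8:43306960-43307259, minus strand) holds it on the opposite strand at -185 to -179. The Utf1 window (chr7:139943606-139943905, plus strand) holds neither core but 4 GC boxes, of which a pair overlaps by 1 base. The Nanog window (chr6:122707315-122707614, plus strand) joins both cores in a composite, the SOX core, then any 1 base, then the octamer core, on the opposite strand at -151 to -138; a further Nanog window overlaps it and shares the match. Among all 32851 promoter windows the octamer core was found in 4.63%, the SOX core in 12.6%, the GC box in 35.7% and the composite in 2, both of Nanog. The half-site AAGGTCA, which ESRRB and NR5A2 can bind, was in 0 of the 12 windows of these genes and in 4.72% of all. A match is a run of letters and not a measured binding site, and the composite contains both cores.

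Among the 3 factors at the centre of the circuit, Sox2 had the widest change. Its probe A_52_P307739 read 0.94, 1.29 and 0.52 in siControl and -1.57, -1.24, -3.38, -2.07 and -1.73 in P150KD. All 5 knockdown arrays were far below the lowest control, with replicate 3 the lowest. The means were 0.91 ± 0.39 (SD, n = 3) and -2.0 ± 0.83 (SD, n = 5), a signal 13.3% of the control level or 7.51-fold lower (a log2 difference of -2.91, SE 0.48, limma adjusted p = 0.0108). This call held on leaving out any 1 array, with adjusted p from 0.00766 to 0.044. In the shared slide column the difference was -2.48 and, with the column as a block, did not pass (adjusted p = 0.174).

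Pou5f1 encodes OCT4, the partner of SOX2. Its probe A_51_P202340 read 5.68, 5.80 and 5.38 in siControl and 5.07, 4.89, 5.13, 5.24 and 5.49 in P150KD. The groups overlapped through P150KD replicate 5, which lay above the third control. The difference was -0.46 (95% interval -0.92 to 0.00, limma adjusted p = 0.168) and did not pass. Relative to the median of all probes it was -0.26, and its sign turned when arrays were scaled to housekeeping genes (0.08, adjusted p = 0.86).

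Nanog, the homeobox gene that marks the epiblast as the inner cells divide into lineages, was uneven among the controls. Probe A_55_P2007699 read 0.03, 0.19 and 1.18 in siControl and 0.17, 0.19, -0.32, -0.19 and -0.64 in P150KD. The third control stood apart from the other 2, which lay within the knockdown range or just beside it. The difference of -0.62 did not pass (95% interval -1.39 to 0.14, limma adjusted p = 0.243). Without siControl replicate 3 it shrank to -0.27.

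Utf1 encodes a chromatin-bound protein that is a known target of OCT4 and SOX2, and it fell on all 5 knockdown arrays by similar amounts. Probe A_55_P2104769 read 4.64, 4.46 and 4.37 in siControl and 3.05, 3.26, 3.37, 2.98 and 3.36 in P150KD. The groups did not overlap, with the lowest control at 4.37 and the highest knockdown array at 3.37. The fall was 2.43-fold, to 41.1% of the control level (a log2 difference of -1.28, SE 0.18, limma adjusted p = 0.00578). It held on leaving out any 1 array (adjusted p 0.0129 to 0.0303) and when scaled to housekeeping genes (-0.75). In the shared slide column the difference was -1.44, and the column block did not pass (adjusted p = 0.0629).

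Zfp42, the zinc finger gene REX1 whose signal is lost as cells leave the naive state, fell by a smaller step. Probe A_51_P413376 read 6.43, 6.59 and 6.29 in siControl and 5.89, 5.78, 5.78, 5.80 and 5.68 in P150KD. The groups did not overlap and the knockdown arrays spread by only 0.07 (SD, n = 5). The fall was 1.57-fold (a log2 difference of -0.65, SE 0.15, limma adjusted p = 0.0321). This call was not stable: leaving out any 1 of the 8 arrays gave adjusted p from 0.0537 to 0.109, quantile normalization gave -0.39 (adjusted p = 0.13) and scaling to housekeeping genes -0.11 (adjusted p = 0.691). In the shared slide column the difference was -0.54 (adjusted p = 0.333 with the column as a block).

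Tbx3, a T-box gene that supports self-renewal of embryonic stem cells and later endoderm, came close. Probe A_55_P1969002 read 5.72, 5.49 and 5.48 in siControl and 5.17, 4.77, 4.77, 4.61 and 4.07 in P150KD. All knockdown arrays lay below all controls, from replicate 1 just beneath them to replicate 5 well below. The difference of -0.88 (SE 0.26, 95% interval -1.48 to -0.28) did not pass (limma adjusted p = 0.061). It passed without P150KD replicate 1 (-1.01, adjusted p = 0.0487), which is also the knockdown array of the shared slide column, where the difference was -0.39. It passed too in the 3 fits with a trended and robust variance, with array weights, or with probes above background on all arrays (adjusted p 0.0288, 0.0327 and 0.035).

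The nuclear receptor genes Esrrb and Nr5a2, both activators of Pou5f1 in stem cells, did not pass. Esrrb probe A_55_P1954302 read 5.64, 5.34 and 5.52 in siControl and 5.92, 5.85, 5.78, 5.66 and 5.31 in P150KD. Knockdown replicates 1 to 4 were above all controls and replicate 5 was below them. The difference was 0.20 (95% interval -0.25 to 0.66, limma adjusted p = 0.52) and became 0.74 when scaled to housekeeping genes (adjusted p = 0.0336).

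Nr5a2 was read by a pair of probes that went apart. The brighter, A_51_P514449, read 5.92, 5.70 and 5.98 in siControl and 5.84, 5.43, 5.76, 5.64 and 5.42 in P150KD. The dimmer, A_55_P2142908, read 3.46, 3.36 and 3.24 in siControl and 3.80, 3.53, 3.84, 3.73 and 3.45 in P150KD. The former differed by -0.25 (limma adjusted p = 0.384) and the latter by 0.31 (adjusted p = 0.253), and both overlapped between groups. Within an array, brighter minus dimmer was 2.33 to 2.74 in siControl and 1.90 to 2.04 in P150KD, with no overlap. This change of -0.56 had the smallest p the design allows (exact two-sided permutation test over 56 splits, p = 0.0179), and adjusted over the 5 probe pairs of the 3 genes it did not pass (p = 0.0893). A single pair at the smallest p could not pass this adjustment, whatever the size of its change. Scaled to housekeeping genes the brighter probe turned to 0.29 and the dimmer gave 0.85 (limma adjusted p = 0.0236).

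Tfcp2l1, a grainyhead-like factor downstream of LIF signalling in stem cells, had a bright and steady probe and a dimmer one with wide scatter. The bright probe, A_52_P175376, read 7.67, 7.65 and 7.27 in siControl and 7.30, 7.28, 7.16, 7.27 and 7.0 in P150KD. The groups met at the third control, and the difference of -0.33 did not pass (95% interval -0.73 to 0.07, limma adjusted p = 0.242). The dimmer probe, A_55_P2413458, read 3.39, 2.33 and -3.13 in siControl and -3.0, -0.18, 1.54, -0.27 and -1.82 in P150KD. The controls alone ran from -3.13 to 3.39, although all 8 arrays counted as well above background, and the difference of -1.61 had an interval from -5.37 to 2.15. Scaled to housekeeping genes the bright probe turned to 0.21.

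Sall4 was read by 3 probes. The brightest, A_51_P349087, read 4.5, 4.87 and 4.26 in siControl and 4.89, 4.62, 4.68, 4.58 and 4.54 in P150KD. The knockdown arrays lay inside or at the edge of the control range, and the difference was 0.12 (95% interval -0.33 to 0.56, limma adjusted p = 0.722). The middle probe, A_51_P145260, read -2.30, -2.30 and -2.09 in siControl and -2.78, -2.90, -2.69, -2.65 and -2.0 in P150KD, with replicates 1 to 4 below the controls and replicate 5 above them (difference -0.37, adjusted p = 0.326). The dimmest, A_55_P2173546, counted as well above background on 0 of 3 control and 3 of 5 knockdown arrays, and its P150KD mean was at least 1.15-fold the background limit of the controls (adjusted p = 0.326). The signs of the first 2 turned with a single choice, to -0.03 without siControl replicate 3 and to 0.16 when scaled to housekeeping genes.

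**Figure D2:**
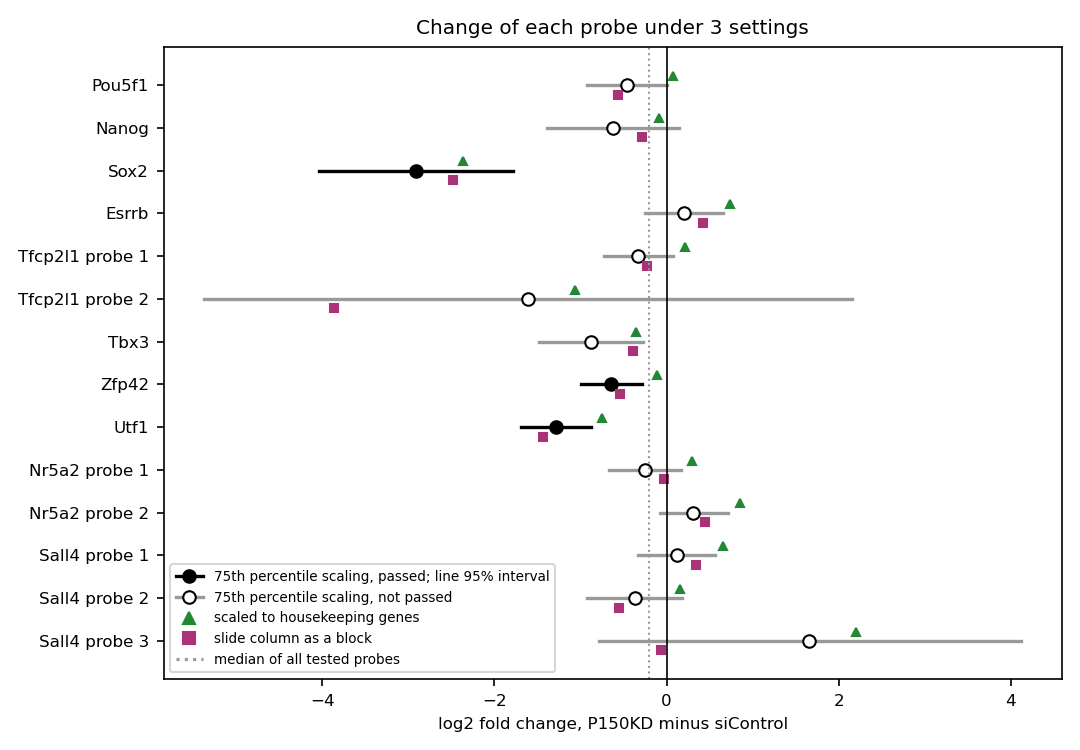
Log2 fold change of each probe (P150KD minus siControl) with its 95% interval from limma (circles and lines, filled where the adjusted p is under 0.05), and the value when scaled to housekeeping genes (triangles) or with the slide column as a block (squares). The dotted line is the median of all tested probes, -0.20. Sox2, Utf1, Zfp42, Tbx3, Nanog and the dimmer Tfcp2l1 probe lie left of 0 under all 3 settings shown. Pou5f1 goes from -0.46 to 0.08 when scaled to housekeeping genes.

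The choice of scaling matters for the small differences. The median of all tested probes was -0.20 with the 75th percentile, -0.13 with quantile normalization, -0.27 when scaled to the median and 0.33 when scaled to 13 housekeeping genes, 4 of which themselves fell (Actb, Gapdh, Pgk1 and Sdha). The share of called probes that rose was 45.1% in the first case, 58.2% with quantile normalization and 87.6% with housekeeping genes.

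A difference between genes on one array does not change when all its probes are shifted alike, as in percentile, median or housekeeping scaling. Quantile normalization can change it. Each factor was therefore set against Pou5f1 within the array, using its brightest probe. This comparison was chosen after the values were seen. Sox2 minus Pou5f1 was -4.75, -4.52 and -4.86 in siControl and -6.63, -6.13, -8.50, -7.31 and -7.22 in P150KD. Utf1 minus Pou5f1 was -1.04, -1.35 and -1.01 in siControl and -2.02, -1.63, -1.75, -2.27 and -2.13 in P150KD. Both moved down with no overlap, by 2.45 and 0.82 log2 units. Each had the smallest p of the design (exact two-sided permutation test, p = 0.0179), which adjusted over the 9 factors compared became 0.0804 and did not pass. With so few arrays, 2 factors alone at the smallest p could not pass this adjustment, whatever the size of their change.

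The other 7 overlapped between groups. Sall4 minus Pou5f1 changed by 0.58 (exact permutation p = 0.0536, adjusted 0.161) and Esrrb minus Pou5f1 by 0.66 (exact permutation p = 0.0893, adjusted 0.201), both upward on most arrays. Zfp42 minus Pou5f1 was 0.74 to 0.91 in siControl and 0.19 to 0.89 in P150KD (exact permutation p = 0.339), a difference that did not pass. Tbx3 minus Pou5f1 changed by -0.42, Nanog by -0.16, Tfcp2l1 by 0.13 and Nr5a2 by 0.21, with adjusted p from 0.509 to 0.714 in the exact permutation test.

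**Figure D3:**
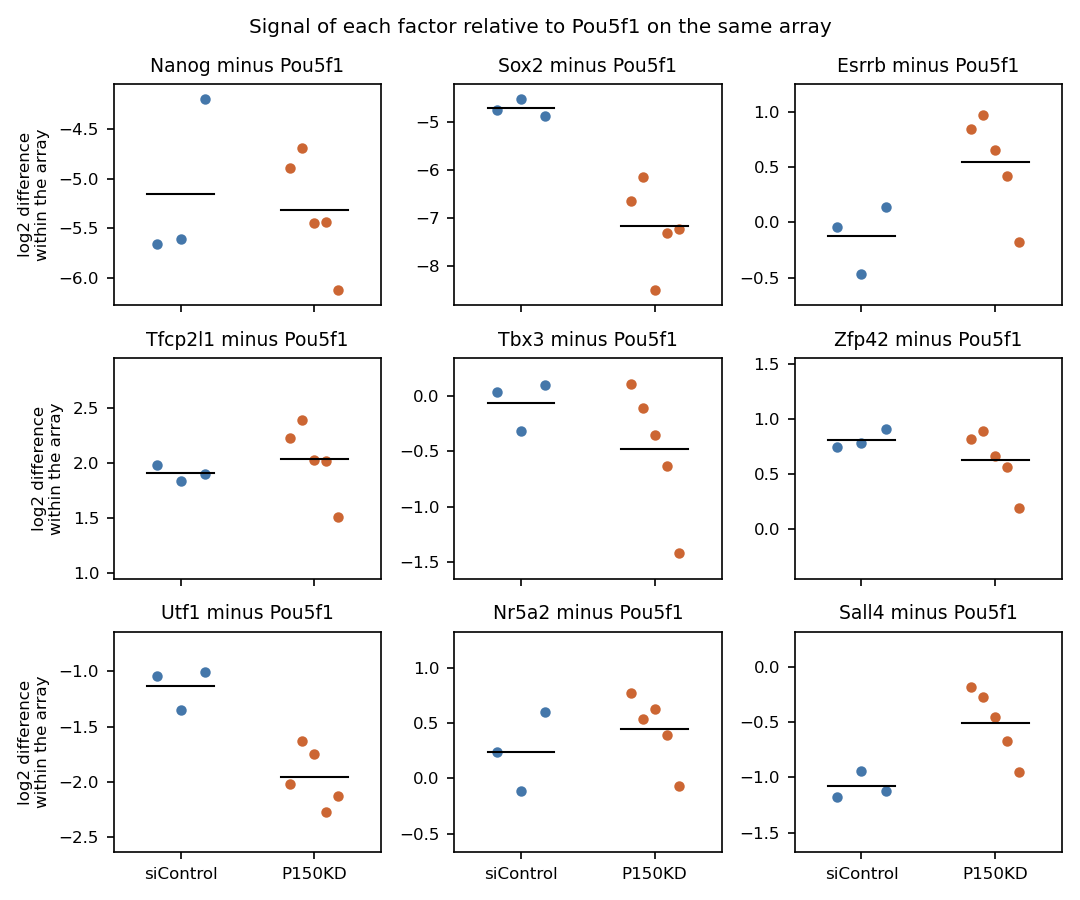
Log2 signal of each factor minus that of Pou5f1 on the same array, with points for arrays and a line for the group mean (3 siControl, 5 P150KD). The offset between genes has no meaning and only the shift between groups can be read. The Sox2 and Utf1 groups are apart, at -4.86 to -4.52 against -8.50 to -6.13 and at -1.35 to -1.01 against -2.27 to -1.63.

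The 5 knockdown arrays did not rank alike across the factors. P150KD replicate 5 was the lowest knockdown array on 8 of the 14 probes, among them Nanog, Tbx3, Zfp42 and Esrrb, but had the highest Pou5f1 signal. P150KD replicate 1 was the highest on 6. Sox2 was lowest on replicate 3 and Utf1 on replicate 4. Chaf1a was lowest on replicates 1 and 4 and highest on replicate 2.

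For the 3 factors that fell, the genes with the most similar profile were those whose centred log2 signal differed least, on average over the 8 arrays. Utf1 was nearest to Capns1, which encodes the small calpain subunit (mean absolute difference 0.07; log2 fold change -1.28, SE 0.16), and to Yif1a (0.09; log2 fold change -1.19, SE 0.15). Zfp42 was nearest to the protein disulphide isomerase gene P4hb and to Shq1 (0.05 each; log2 fold changes -0.63 and -0.58). For Sox2 the nearest, Efhd2 and the phospholipase D gene Pld2, differed from it by 0.45 and 0.47 (log2 fold changes -2.90 and -2.33). This distance is not scaled to the size or spread of a gene's values, so it cannot be compared between the 3 factors.

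Other genes of the pluripotency network moved both ways. Of 24 further network genes 2 rose, 2 fell and 20 did not pass, beside 6.65% risen and 10.5% fallen among all 14601 genes with 1 probe each, and their median was 0.26 against -0.24 for all genes. Klf2, a Krüppel-like factor that sustains the naive state, rose from 5.75 ± 0.14 to 6.93 ± 0.19 (limma adjusted p = 0.00783). Dppa2, a chromatin factor of pluripotent cells, rose by 0.77 (SE 0.16). Stat3, which carries the LIF signal to the nucleus, fell from 0.97 ± 0.78 to -1.81 ± 0.85 (adjusted p = 0.0193), and Tet2, a DNA demethylation enzyme, from 3.80 ± 0.43 to 2.28 ± 0.51 (adjusted p = 0.0281). Klf4 differed by 0.62 and Dppa4 by 0.80 without passing (adjusted p 0.0732 and 0.0594). Leaving out 1 control ended the Dppa2 and Tet2 calls in each case (adjusted p 0.0512 to 0.104) and, for siControl replicate 1, that of Stat3 (adjusted p = 0.0707). The Tet2 call ended as well without P150KD replicate 1 or 4 (adjusted p 0.0575 and 0.0618). With housekeeping scaling 7 of the 24 rose and 1 fell, beside 3860 and 546 of all 30348 tested probes. Once slide column was a block 0 passed, beside 2.35% of all tested probes.

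Of 14 genes taken as targets of OCT4 and SOX2, 1 rose, beside 6.65% of all genes, and 3 fell, beside 10.5%. Their median was -0.02, against -0.24 for all genes. The homeobox gene Otx2, an early regulator of the epiblast, fell from 4.53 ± 0.26 to -0.20 ± 1.14 (limma adjusted p = 0.00549), the growth factor gene Gdf3 by 1.10 on the log2 scale (adjusted p = 0.0155) and the corepressor gene Trim28 by 0.93 (adjusted p = 0.0283). The ectoenzyme gene Enpp3 rose by 2.79 (SE 0.34). Fgf4, the growth factor gene under a SOX2 and OCT4 enhancer, read 4.65 ± 0.57 and 5.16 ± 0.39 and did not pass (adjusted p = 0.34), nor did Fbxo15 (-0.15, adjusted p = 0.607). With housekeeping scaling 3 of the 14 rose and 1 fell, beside 3860 and 546 of all 30348 tested probes. Their median was then 0.52, against 0.33 over all tested probes. With slide column as a block 0 passed (limma adjusted p 0.0717 to 0.182 for Otx2, Gdf3, Trim28 and Enpp3). The Trim28 call also ended with quantile normalization (adjusted p = 0.1) and without any 1 of the controls (adjusted p 0.0657 to 0.0899) or of P150KD replicates 1 to 4 (adjusted p 0.0528 to 0.0616), and that of Gdf3 without siControl replicate 1 or 3 (adjusted p 0.0569 and 0.0534).

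In the LIF and STAT3 list 1 of 11 rose, beside 6.65% of all genes, and 1 fell, beside 10.5%, the latter being Stat3. Socs3, the feedback inhibitor that STAT3 induces, rose from 3.28 ± 0.26 to 6.38 ± 0.44 (log2 fold change 3.10, SE 0.29, limma adjusted p = 0.00196), and passed when blocked on slide column too. Among 8 tested genes of the formative and primed epiblast 2 fell, Otx2 and the DNA methyltransferase gene Dnmt3b, and 0 rose. The same shares of all genes stand beside these counts. The brightest Dnmt3b probe changed by -1.33 and another by -1.26, while the remaining one rose by 1.54 (adjusted p = 0.00508, 0.0176 and 0.0149), so its probes disagree. With slide column as a block neither Otx2 nor the brightest Dnmt3b probe passed (adjusted p 0.0767 and 0.0633). A further 5 genes of this list, among them T and Foxd3, were too dim to be tested.

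The closest relatives of the factors in sequence families were examined as well. Of 16 tested paralogues 3 rose, beside 6.65% of all genes, and 0 fell, beside 10.5%. Their median was 0.57, against -0.24 for all genes. Of the 16, 14 were higher, and the share of all genes that were higher was not counted. Sox15, a SOX gene of embryonic stem cells and trophoblast, rose from -1.0 ± 0.33 to 0.61 ± 0.35 (limma adjusted p = 0.00996) and Sox21 by 1.34 (SE 0.25), on the same arrays on which Sox2 fell. The Tfcp2l1 relative Tfcp2 rose from 0.30 ± 1.04 to 4.02 ± 0.39 (adjusted p = 0.00452). Sall2 (3.41), Esrra (0.54) and Nr5a1 (0.61) did not pass (adjusted p from 0.0524 to 0.446). A second Sox21 probe differed by 1.01 without passing (adjusted p = 0.078). Blocked on slide column 0 of the 16 passed (adjusted p 0.0509 for Tfcp2, 0.141 for Sox15 and 0.21 for Sox21), and the Sox21 call ended without siControl replicate 1 too (adjusted p = 0.0634).

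**Figure D4:**
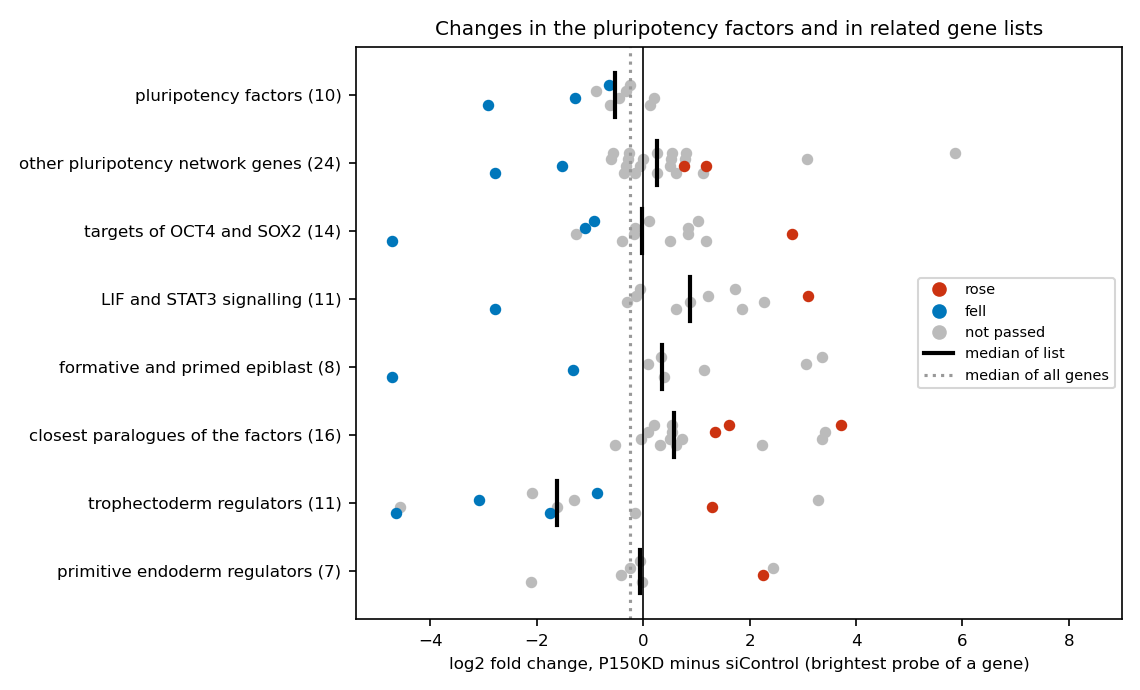
Log2 fold change (P150KD minus siControl) of the brightest probe of each tested gene in the pluripotency factors and 7 related lists, with the number tested in brackets. Colours mark genes that rose, fell or did not pass, black bars the list medians and the dotted line the median of all genes, -0.24. The factors lie mostly left of 0 with a median of -0.54, the trophectoderm regulators at -1.62 and the closest paralogues of the factors at 0.57. With housekeeping scaling the median of the factors was -0.01 and that of all tested probes 0.33.

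Regulators of the other early lineages stood beside the factors as follows. Of 11 tested trophectoderm regulators 4 fell, beside 10.5% of all genes, and 1 rose, beside 6.65%. Their median was -1.62, against -0.24 for all genes. Id2 (-4.64), Krt18 (-3.09), Gata3 (-1.75) and Tead4 (-0.87) fell, and Hand1 rose by 1.29. The Tead4 call was lost with quantile normalization (-0.62, limma adjusted p = 0.0712), with housekeeping scaling (-0.33), in the fit blocked on slide column and without any 1 of the controls. Gata3 was lost without any 1 of the controls too (adjusted p 0.0674 to 0.146), without P150KD replicate 3, 4 or 5 (adjusted p 0.0565 to 0.0889), and with quantile normalization, median scaling or housekeeping scaling (adjusted p 0.0778, 0.0665 and 0.13). Hand1 was lost with slide column as a block (adjusted p = 0.0628) and without siControl replicate 2 or 3 (adjusted p 0.0537 and 0.053). With that block 4 of the 11 fell, Tead4 not among them, beside 271 of all 30348 tested probes. The list median was then -2.75, against -0.13 over all tested probes. The difference in that fit rests on 1 knockdown array. Cdx2, which represses Pou5f1 in outer cells, did not pass (-1.31, limma adjusted p = 0.247). It read 4.49, 4.51 and 4.44 in siControl and 1.73, 2.66, 2.39, 4.51 and 4.55 in P150KD. Knockdown replicates 1 to 3 thus lay below all controls, and replicates 4 and 5 lay at or just above the highest control. Of 7 tested primitive endoderm regulators 1 rose, beside 6.65% of all genes, and 0 fell, beside 10.5%. Their median was -0.07, against -0.24 for all genes. Gata4 rose by 2.25 (SE 0.43), while Gata6 did not pass (-0.25, limma adjusted p = 0.474). The Gata4 call ended with slide column as a block (adjusted p = 0.12) and without siControl replicate 1 or 3 (adjusted p 0.0676 and 0.0511).

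Markers of cells other than the embryo were looked at over whole lists. Of 10 leukocyte markers 3 of the 6 tested rose (Cd74, Coro1a and Srgn), beside 6.65% of all genes. The log2 of the summed signal of the 10 markers was 0.58 to 1.03 in siControl and 2.27 to 3.35 in P150KD. Blocked on slide column 0 of the 6 passed (limma adjusted p 0.106 to 0.252 for these 3), and 1 did without siControl replicate 2 or 3. On leaving out 1 array in turn, the Srgn call held without P150KD replicate 3 and ended without each of the others (adjusted p 0.0575 to 0.125). Ptprc, Laptm5, Tyrobp and Lyz2 were well above background on no array. For 10 cumulus and granulosa markers 0 of 3 tested passed, the sum was 2.71 to 3.08 and 3.01 to 3.98, and Has2, Ptx3, Tnfaip6, Fshr and Inhba were above background on no array. For 9 sperm markers 0 of 6 tested passed and the sum was 3.03 to 3.44 and 2.37 to 3.37. The part of these signals in the changes of the factors was not tested.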

How the data were processed

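RNA of mouse morulae was measured on 8 one-colour Agilent arrays. Per the file headers, the authors' scanner software, Feature Extraction 10.5.1, wrote a processed signal for each spot, a background-corrected intensity. The deposited series table holds log2 values of the same arrays, and 100% of them lay within 0.1 of the levels used here once each probe was centred on its median; it served as an alternative. Of the scanner columns the processed signal, the median and background intensities and the background, saturation and outlier flags were used.

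A level was log2 of the processed signal minus the log2 of the array's 75th percentile, with spots of a probe averaged. Probes well above background on at least 3 of 8 arrays were tested (30348 of 55681), in limma 3.58.1 under R 4.3.3 with lmFit and eBayes, and p-values were adjusted over all of them by Benjamini-Hochberg with a threshold of 0.05. Probes were named by joining their RefSeq identifiers to a RefSeq gene table on GRCm38.p6, which gave 27235 of the 55681 probes 1 symbol. The array design is on mm9, so no coordinates of probes are given. For gene lists the brightest tested probe stood for a gene. Named from the lists were up to 6 genes that passed, by smallest p; others named there (Klf4, Dppa4, Fgf4, Fbxo15, Sall2, Esrra, Nr5a1, Cdx2 and Gata6) were chosen after their values were seen. The factors and all lists were chosen with earlier results of these data known. The fit was tested on simulated data with 3 against 5 arrays and 30348 probes. It recovered 3 of 100 probes changed 2-fold and 36 of 100 changed 4-fold, with 6 false calls. The simulation altered a far smaller share of probes than the 13.9% called in the data. The Benjamini-Hochberg cut-off depends on that share, so these rates do not measure how many true changes the real comparison missed. True changes could still go uncalled. Same-numbered arrays of the groups had deviations correlated at -0.01, -0.07 and -0.02, and the numbers were not taken to pair them.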

Additional observations from a re-analysis of the deposited data

Results flagged for a closer look

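Of 39 named probes examined, 2 had a P150KD array that stood apart from the other 4 by more of the range than Dixon's test allows (0.710 for 5 arrays), where chance alone gives about 1 in 20. For Sall4 probe A_51_P145260 it was P150KD replicate 5 at -2.0, against -2.90 to -2.65 on the others, a gap of 0.72 of the range. For Klf2 it was P150KD replicate 4 at 7.26, against 6.81 to 6.88 on the others, a gap of 0.83 of the range.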

How the results depend on the processing

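Of the 14 factor probes 3 passed, and 2 to 3 on leaving out 1 array in turn. With a replicate block 0 passed, as did 0 of all tested probes (limma, 6371 at an unadjusted p under 0.05) and 0 genes of the comparison lists. The labels do not say whether the replicate numbers pair the arrays, and the main fit did not pair them. With the slide column as a block 0 factor probes passed, 442 of all probes rose, 271 fell and 5 genes of the related lists passed. Over all tested probes 1907 rose and 2324 fell. Those that rose numbered 3860 with housekeeping scaling and 1016 to 1770 on leaving out 1 array; those that fell numbered 1487 with quantile normalization, 1512 with median scaling, 546 with housekeeping scaling and 690 to 1979 on leaving out 1 array, the lowest without siControl replicate 1. Genes of the related lists past the threshold numbered 19, and 10 to 20 on leaving out 1 array. These lists are the network, target, LIF and STAT3, epiblast, paralogue, trophectoderm and primitive endoderm genes. Markers of cells other than the embryo, housekeeping genes, Chaf1a and Chaf1b were not in this count. Signs turned with housekeeping scaling for Pou5f1 (0.08), the bright Tfcp2l1 probe (0.21), the bright Nr5a2 probe (0.29) and Sall4 probe A_51_P145260 (0.16), with the slide column as a block for Sall4 probe A_55_P2173546 (-0.06) and without siControl replicate 3 for Sall4 probe A_51_P349087 (-0.03, against 0.28 without siControl replicate 2). The cause was not tested. Of 330 other values of single probes and probe pairs 300 kept their direction and side of the threshold, 18 no longer passed, 6 newly passed and 6 turned. The 300 include values that did not pass in the main fit and stayed so. Only the 3 called probes could lose a call: Sox2 and Utf1 each passed in 17 of 19 other settings, and Zfp42 in 5. Signal over background limits the dimmest Sall4 probe, and 3 controls limit all.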
